A study of Saccharomyces cerevisiae with 44 samples.

Results

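The reading frames of the Ty1 and Ty2 retrotransposons of budding yeast were followed in RNA sequencing of cultures exposed to inhibitors of DNA replication. They were chosen by systematic name as annotated gag or gag-pol frames of Ty1 and Ty2 with a row in the count tables. Of 60 names 59 had a row, among 6692 rows in all, and YNL054W-B was not used here. The names were picked with earlier results of these data known, although the choice names no comparison. All cultures were of a wild-type strain in the W303 background, a standard laboratory yeast, grown asynchronously at 30 °C. Each of the 11 groups held 2 independent cultures, and each culture was sequenced as 2 technical replicates. In the rich medium YEPD, HU at 50 mM and MMS at 0.002% were set against water (C0), and CPT at 100 µg/mL against 1 N NaOH (CC). In the synthetic medium SC, AD at 50 µg/mL was set against 2% acetone (CA), DOX at 25 µg/mL against water (CD) and MTX at 150 µg/mL against 0.1 N NaOH (CM). HU, MMS, CPT, DOX and MTX are usual abbreviations of hydroxyurea, methyl methanesulfonate, camptothecin, doxorubicin and methotrexate, while AD is given by the labels only as such. Inhibitors were added to growing cells at concentrations that the design text calls IC50, and no length of exposure is stated in the labels.

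Ty1 and Ty2 are closely related retrotransposons bounded by long terminal repeats (LTRs). The RNA starts in the 5′ LTR, serves as message and as genome, and is packed into particles made of Gag. It is copied there into DNA, which is inserted mostly upstream of genes read by RNA polymerase III. The gag frame is translated by itself most of the time, and at a programmed shift of the reading frame some ribosomes go on into pol, which encodes protease, integrase and reverse transcriptase with RNase H. Ty1 is known to respond to nutrient signals, to the filamentation factors Tec1 and Ste12, and to DNA damage and replication stress. Most laboratory strains carry many copies that are nearly alike in sequence.

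The members were 28 gag rows and 31 gag-pol rows of 31 annotated elements and 1 stretch outside any, and all 59 had the coordinates of the RefSeq annotation of R64, the assembly that sacCer3 stands for. A gag row ended 14 bases past the frameshift site in Ty1 and 20 bases past it in Ty2. The site, whose letters CTTAGGC stand in capitals below, was found once in the gag part of each of the 25 Ty1 and 4 Ty2 gag-pol rows that began with gag. It began at base 1303 of the frame in Ty1 and at base 1291 in Ty2. The stretches below run from 24 bases before the site into pol and are shown because they mark where the counted part of the rows begins. The first is from YER138C, the listed Ty1 row of highest level (chrV:447696-447746, minus strand), and the second from YGR161W-B, the listed Ty2 row of highest level (chrVII:813004-813060, plus strand), both in the coding exon.
YER138C: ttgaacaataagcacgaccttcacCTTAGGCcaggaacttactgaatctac
YGR161W-B: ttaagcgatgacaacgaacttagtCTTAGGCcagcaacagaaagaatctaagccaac
The rows therefore did not report gag and pol alike. Of the 28 gag rows, 26 lay wholly inside their gag-pol row, and all 26 stood at 0 in every library, since reads that overlapped more than 1 feature were left out by the authors' counting. A gag-pol row counted reads over its pol part alone, 3946 of 5269 bases in YER138C and 3997 of 5314 bases in YGR161W-B. Gag was counted in the remaining 2 gag rows, YAR010C, whose pol row YAR009C is annotated apart from it, and YNL054W-A, which lay in no other row of the tables. In all, 33 members held counts, and these same 33 passed the filter on low counts: 27 Ty1 gag-pol rows, 2 Ty1 gag rows and 4 Ty2 gag-pol rows. Among the Ty1 rows was YLR035C-A, which lies in no annotated element and was placed with Ty1 because it was 99.7% identical to YER160C and at most 78.2% identical to a Ty2 row.

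The sequence upstream of gag is shown because transcription starts there and the members differ in it. The 130 bases from -220 to -91, counted from the first base of the gag start codon, lie inside an annotated LTR in each of the 3 rows below. Capitals mark TATAAA (the TATA box), TGAAAC (the core bound by Ste12) and CATTCC or CATTCT (bound by Tec1) on either strand, and no printed match overlapped one of another motif. The rows are YER138C (Ty1, chrV:449115-449244, minus strand), YBL005W-B (Ty1, chrII:221110-221239, plus strand) and YGR161W-B (Ty2, chrVII:811518-811647, plus strand).
YER138C: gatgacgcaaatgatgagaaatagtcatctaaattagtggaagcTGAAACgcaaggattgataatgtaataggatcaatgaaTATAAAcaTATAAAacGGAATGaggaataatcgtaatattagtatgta
YBL005W-B: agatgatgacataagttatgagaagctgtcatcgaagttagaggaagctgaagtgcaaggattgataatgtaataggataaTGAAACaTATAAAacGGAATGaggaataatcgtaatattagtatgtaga
YGR161W-B: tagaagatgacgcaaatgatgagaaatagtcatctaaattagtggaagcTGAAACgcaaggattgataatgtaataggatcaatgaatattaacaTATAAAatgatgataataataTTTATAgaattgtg
The Ste12 letters began at -176 in YER138C and at -171 in YGR161W-B, and at -139 in YBL005W-B. In windows from 250 bases before to 50 bases into gag, TATAAA and TGAAAC were found in all 25 Ty1 and all 4 Ty2 rows that begin with gag, on either strand. Of 5912 windows of other protein-coding genes, 44.5% held TATAAA and 18.8% held TGAAAC. The Tec1 letters, CATTCC or CATTCT, were found in 17 of the 25 Ty1 and 3 of the 4 Ty2 windows, against 27.7% of the other windows. TGACTC, bound by Gcn4, was found in none of these Ty windows, against 8.1% of the others. These are matches of letters in the reference strain, in windows that are copies of each other, and they are no evidence of binding.

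The pol parts of the 24 Ty1 rows longer than 5200 bases, which leaves out 3, were 93.4% to 100.0% identical to each other, with a median of 97.0% over 276 pairs, and none of these pairs was identical in every base. The 4 Ty2 rows were 98.5% to 99.3% identical to each other and 75.3% to 79.7% identical to those Ty1 rows. Of the 50-base stretches of the counted part, a median of 1.3% occurred once in the reference genome, and 13 of the 33 rows had no such stretch. YER138C was one of them and still had 242371 counts over all libraries. At that length its reads can therefore not be assigned to that insertion, and W303 need not carry the insertions of the reference strain. Stretches longer than 50 bases were not examined. The rows are near-identical copies that share reads, so they are treated below as readings of 2 families and not as independent genes. Between families the reads are easier to place, since a median of 7.3% of the 50-base stretches of a Ty1 row and 22.4% of those of a Ty2 row also occurred in the other family. Counting disregarded strand, so antisense Ty RNA cannot be told apart from the message.

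Totals per library, over the 44 libraries, lay between 6.82 M and 15.08 M counts. Counts of the 2 technical replicates were summed, and levels are given as CPM, the count relative to a library size scaled by the trimmed mean of M values (TMM). The members took 0.446% to 2.09% of all counts of a culture. Where nothing else is said, calls are from edgeR's quasi-likelihood test with Benjamini-Hochberg adjustment over 6344 genes and a threshold of 0.05. The median log2 fold change of all genes lay between -0.03 and 0.02 in the 7 comparisons of groups.

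Per counted kilobase, the mean level over the 22 cultures differed 2.54-fold between the highest and the lowest Ty1 gag-pol row. YER138C stood at 128 CPM per kilobase, YML039W at 126 and YLR157C-B at 124, and YBR012W-B was lowest at 50.4. These leading Ty1 rows belong to a closely spaced group at the top. The 4 listed Ty2 rows ranged from 34.5 in YDR261W-B to 55.9 in YGR161W-B, with YDR034C-D at 47.9 and YDR210W-B at 47.7. The counted gag rows stood at 72.5 CPM per kilobase in YAR010C and 43.8 in YNL054W-A, and YAR009C, the pol row of the same element as YAR010C, at 109. Gag and pol rows of 1 element thus differed in level per base, and the part of read sharing in this was not tested.

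**Figure D1:**
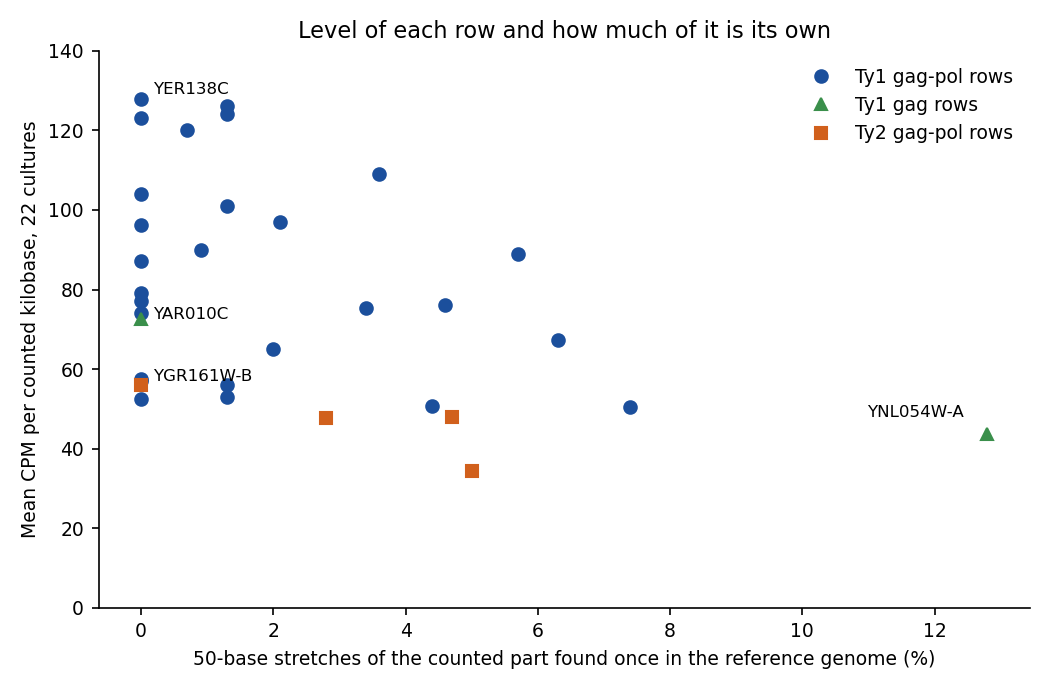
Each point is 1 of the 33 member rows with counts. The x axis gives the percentage of 50-base stretches of its counted part that occur once in the reference genome, and the y axis the mean CPM per counted kilobase over 22 cultures. YER138C, at 128 CPM per kilobase, has no stretch of its own, and YNL054W-A has the most, 12.8%.

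HU and MMS were each compared with the C0 water vehicle in YEPD, which they share. HU depletes nucleotide pools by inhibiting ribonucleotide reductase, and MMS alkylates DNA. Ty1 gag-pol rows summed to 6464 and 6312 CPM in the C0 cultures, 11354 and 14354 CPM in HU, and 15996 and 19063 CPM in MMS. Both HU cultures lay above both C0 cultures, and both MMS cultures lay above both HU cultures. Ty2 gag-pol rows summed to 433 and 430 CPM in C0, 961 and 1186 CPM in HU, and 1413 and 1764 CPM in MMS, in the same order. As ratios of group means, HU was 2.01 times C0 for Ty1 and 2.49 times for Ty2, and MMS was 2.74 and 3.68 times C0.

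In HU, 32 of the 33 rows tested were called higher and none lower, beside 2.63% of all genes that were called higher. The median log2 fold change was 1.01 over the 27 Ty1 gag-pol rows, all of them called, and 1.32 over the 4 Ty2 rows, all called as well. YGR161W-B stood at 124 and 122 CPM in C0 and at 289 and 346 CPM in HU. Its groups were far apart, and its log2 fold change was 1.37 ± 0.18 (SE, n = 2 cultures per group, edgeR adjusted p = 0.000351). YDR261W-B went from 79.4 and 79.6 CPM to 183 and 227 CPM (1.37 ± 0.19, edgeR adjusted p = 0.000489). YDR210W-B and YDR034C-D rose by 1.28 and 1.25 on the log2 scale. The 4 largest rises of the 33 were thus the 4 Ty2 rows. YER138C, the leading Ty1 row, stood at 362 and 356 CPM in C0 and at 631 and 808 CPM in HU (1.00 ± 0.20, edgeR adjusted p = 0.00785). The 2 HU cultures differed from each other in Ty1 more than the 2 C0 cultures did. The row that was not called was the gag row YAR010C, at 62.4 and 73.2 CPM in C0 and 112 and 109 CPM in HU (0.70 ± 0.20, edgeR adjusted p = 0.0609). Without HU culture 2 the number of calls was 4, without C0 culture 1 it was 7 and without C0 culture 2 it was 4. The 4 Ty2 rows were called in every fit that left out 1 culture.

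In MMS all 33 rows rose, beside 6.07% of all genes called higher. The log2 fold changes ran from 1.33 to 1.67 in the Ty1 gag-pol rows, from 1.30 to 1.35 in the gag rows and from 1.81 to 1.93 in the Ty2 rows. YGR161W-B stood at 421 and 515 CPM in the MMS cultures (1.93 ± 0.19 against C0, edgeR adjusted p = 3.87e-06). YDR261W-B at 258 and 343 CPM was next (1.92 ± 0.20, edgeR adjusted p = 6.09e-06), followed by YDR034C-D at 1.87 and YDR210W-B at 1.81. As in HU, the 4 Ty2 rows were the 4 largest rises of the 33. YER138C stood at 852 and 1019 CPM (1.38 ± 0.20, edgeR adjusted p = 0.000192). The gag rows YAR010C, at 161 and 171 CPM, and YNL054W-A, at 94.3 and 92.7 CPM, lay far above their C0 levels and were both called. All 33 rows were called in every fit that left out 1 culture.

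**Figure D2:**
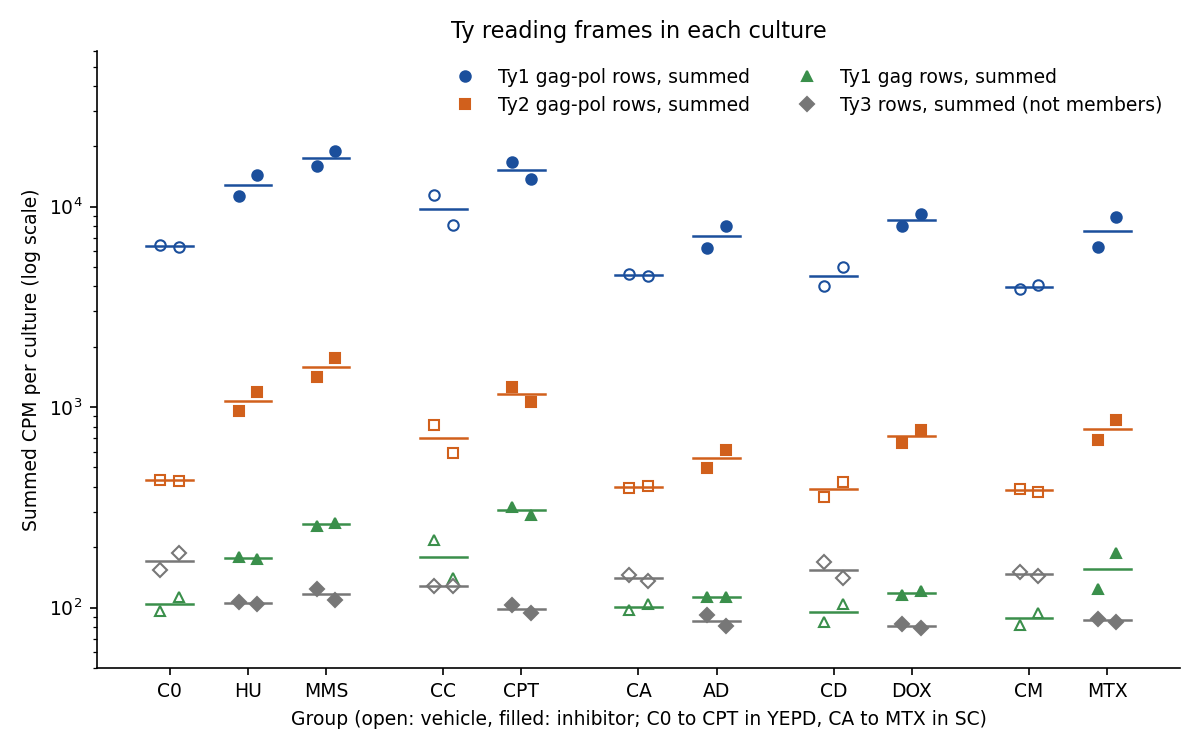
Summed CPM of the Ty1 gag-pol, Ty2 gag-pol and Ty1 gag member rows, and of the Ty3 rows, in each culture on a log axis. Points are cultures, lines are means of 2 cultures, open points are vehicles and filled points inhibitors. Ty1 gag-pol is lowest in CM, at 3877 and 4071 CPM, and highest in MMS, at 15996 and 19063 CPM.

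CPT, a topoisomerase I poison, was compared with NaOH in YEPD. The vehicle itself was high and uneven: Ty1 gag-pol summed to 11444 and 8094 CPM in the CC cultures, both above the water cultures of the same medium. In CPT the sums were 16677 and 13679 CPM. For Ty2 the CC cultures gave sums of 810 and 587 CPM, and the CPT cultures 1263 and 1064 CPM. The groups did not overlap in either family, but the higher CC culture was 1.41 times the lower for Ty1, and the ratios of group means were 1.55 for Ty1 and 1.67 for Ty2. All 33 rows had an unadjusted p under 0.05, and 4 rows were called after adjustment, beside 1.91% of all genes called higher. They were the gag row YAR010C and the Ty2 rows YGR161W-B, YDR034C-D and YDR210W-B. YAR010C stood at 141 and 88.8 CPM in CC and at 207 and 186 CPM in CPT (0.78 ± 0.19, edgeR adjusted p = 0.0396). YGR161W-B stood at 243 and 177 CPM in CC and at 389 and 320 CPM in CPT (0.76 ± 0.18, edgeR adjusted p = 0.0296). Both went up from the same uneven vehicle. None of the 27 Ty1 gag-pol rows was called by edgeR, against 9 by DESeq2, with log2 fold changes from 0.55 to 0.73 and adjusted p from 0.0587 to 0.215. Calls numbered 12 without CC culture 1 and 0 without CC culture 2 or either CPT culture.

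AD was compared with acetone in SC. Ty1 gag-pol summed to 4599 and 4511 CPM in CA and 6193 and 8051 CPM in AD, and Ty2 rows to 393 and 405 CPM in CA and 499 and 614 CPM in AD. Both AD cultures lay above both CA cultures, and the 2 AD cultures lay further apart than the vehicle cultures. The ratios of means were 1.56 for Ty1 and 1.39 for Ty2. Of the 33 rows 2 were called, beside 2.02% of all genes called higher, and 30 rows had an unadjusted p under 0.05. YER138C stood at 263 and 255 CPM in CA and at 375 and 498 CPM in AD (0.75 ± 0.20, edgeR adjusted p = 0.0465). YLR157C-B went from 253 and 253 CPM to 367 and 478 CPM (0.74 ± 0.19, edgeR adjusted p = 0.0401). Both are among the 3 leading Ty1 rows and share most of their sequence. The 4 Ty2 rows had log2 differences from 0.40 to 0.54, with adjusted p from 0.101 to 0.258 and no call by DESeq2. The gag row YAR010C stood at 58.9 and 67.7 CPM in CA and at 66.8 and 71.7 CPM in AD, which overlap. YNL054W-A stood at 38.1 and 36.1 CPM in CA and at 45.8 and 40.9 CPM in AD, which do not overlap, and was not called (0.22 ± 0.21, edgeR adjusted p = 0.585). Calls numbered 6 without AD culture 1 and 0 without AD culture 2 or either CA culture.

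DOX, an intercalating topoisomerase II poison, was compared with water in SC. Ty1 gag-pol summed to 4027 and 4985 CPM in CD and 7997 and 9177 CPM in DOX, and Ty2 rows to 357 and 421 CPM in CD and 661 and 773 CPM in DOX. Neither pair of groups overlapped, and the ratios of means were 1.91 and 1.85. Of the 33 rows 32 were called higher and none lower, in a comparison in which 21% of all genes were called higher. The largest rises were in YER138C, from 223 and 278 CPM to 478 and 558 CPM (1.05 ± 0.20, edgeR adjusted p = 0.000588), and in YOL103W-B, YOR142W-B and YPL257W-B. YOL103W-B went from 206 and 252 CPM to 424 and 499 CPM (1.01 ± 0.20, edgeR adjusted p = 0.000863). These are Ty1 rows, unlike the leading rows of HU and MMS. The 4 Ty2 rows rose by 0.74 to 0.95 on the log2 scale. The gag row YAR010C was not called, at 54.3 and 66.3 CPM in CD and 63.5 and 68.5 CPM in DOX. These values overlap (log2 difference 0.13 ± 0.20, edgeR adjusted p = 0.611), and the other gag row, YNL054W-A, rose from 30.8 and 37.3 CPM to 52.0 and 52.9 CPM (0.62 ± 0.21, edgeR adjusted p = 0.026). Of the 32 calls 26 were made in every fit that left out 1 culture.

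MTX, an inhibitor of dihydrofolate reductase, was compared with dilute NaOH in SC. Ty1 gag-pol summed to 3877 and 4071 CPM in CM and 6303 and 8907 CPM in MTX, and Ty2 rows to 392 and 376 CPM in CM and 687 and 865 CPM in MTX. Both MTX cultures lay above both vehicle cultures, and the ratios of means were 1.91 for Ty1 and 2.02 for Ty2. All 33 rows rose, beside 10.8% of all genes called higher. The largest rises were YGR161W-B, from 117 and 112 CPM to 211 and 271 CPM (1.07 ± 0.18, edgeR adjusted p = 0.000975), and YJR027W, from 161 and 165 CPM to 278 and 396 CPM (1.05 ± 0.19, edgeR adjusted p = 0.00151). YDR261W-B at 1.01 and the Ty1 row YPR137C-B at 1.00 followed. Ty1 and Ty2 rows were thus mixed among the leaders. Both gag rows were called, YAR010C at 73.9 and 101 CPM and YNL054W-A at 50.3 and 85.6 CPM in MTX. MTX culture 2 was higher than culture 1 in each of these rows, and without it 8 rows were called, 4 of them the Ty2 rows.

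**Figure D3:**
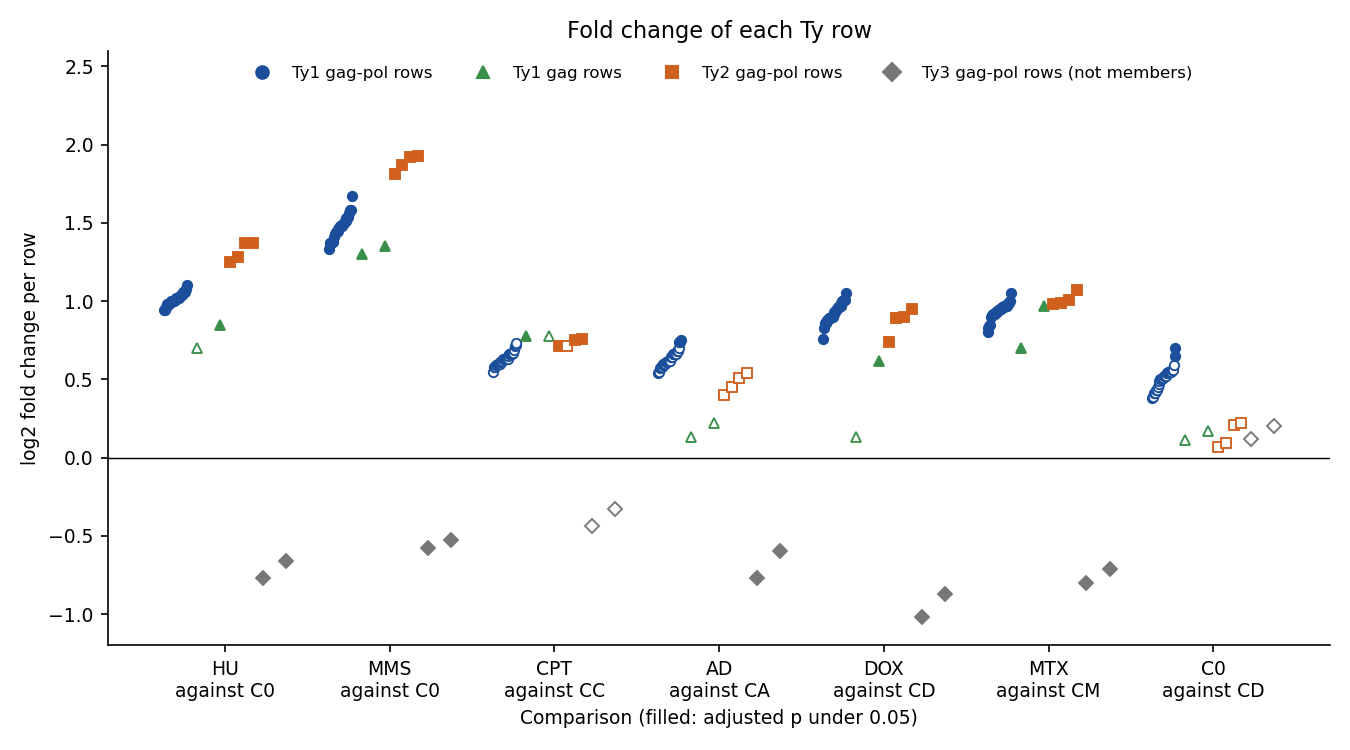
Log2 fold change of each member row and of the 2 Ty3 rows in the 7 comparisons, with filled symbols for an edgeR adjusted p under 0.05. In MMS the 4 Ty2 rows run from 1.81 to 1.93 and the 27 Ty1 gag-pol rows from 1.33 to 1.67.

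C0 and CD are water vehicles in YEPD and SC, so this comparison is of the media without inhibitor. Ty1 gag-pol rows summed to 6464 and 6312 CPM in C0 and to 4027 and 4985 CPM in CD, without overlap. Ty2 rows summed to 433 and 430 CPM in C0 and to 357 and 421 CPM in CD, where the nearest cultures differed by 1.02 times. Called higher in YEPD were 3 Ty1 gag-pol rows, beside 11.2% of all genes, and 23 rows had an unadjusted p under 0.05. The called rows were YER160C (0.70 ± 0.22, edgeR adjusted p = 0.0383), YLR035C-A (0.65 ± 0.21, edgeR adjusted p = 0.0374) and YLR157C-B (0.54 ± 0.19, edgeR adjusted p = 0.0499). YER160C stood at 159 and 149 CPM in C0 and at 85.3 and 105 CPM in CD, and its near copy YLR035C-A at 141 and 132 CPM in C0 and at 77.5 and 96.7 CPM in CD. The Ty2 rows had log2 differences of 0.07 to 0.22, none of them called by edgeR or DESeq2 or at an unadjusted p under 0.05. No call was made in any fit that left out 1 of the 4 cultures.

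The Ty2 share of the member rows' summed gag-pol CPM can be compared between cultures without regard to scaling. Sequence tells the families apart only in part. A median of 22.4% of the stretches examined in a Ty2 row also occurred in Ty1. The part of reads from such stretches in the Ty2 share was not tested. The list holds 27 Ty1 gag-pol rows and leaves out 3. It holds 4 Ty2 rows and leaves out 6, which had a mean sum of 688 CPM in C0 against 431 CPM for the 4. This share is therefore one of the listed rows and not of all Ty1 and Ty2 RNA. It was 6.28% and 6.37% in C0, 7.80% and 7.63% in HU, and 8.12% and 8.47% in MMS. The 3 groups did not overlap, with the inhibitors above the vehicle. In CC it was 6.61% and 6.76% and in CPT 7.04% and 7.21%, again apart. In SC the share was 7.88% and 8.24% in CA and 7.46% and 7.09% in AD, lower with the inhibitor. It was 8.13% and 7.78% in CD and 7.63% and 7.77% in DOX, which barely parted. In CM it was 9.18% and 8.45% and in MTX 9.82% and 8.85%, which overlapped. With 2 cultures against 2, the smallest p of an exact two-sided permutation test is 0.333, so these shares were not tested. The 6 Ty2 gag-pol rows outside the list showed close ratios of group means, 2.52 in HU and 3.63 in MMS, although reads shared between copies make them no separate measurement.

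The gag rows YAR010C and YNL054W-A were set per base against YAR009C, the pol row of the same element as YAR010C. YAR010C stood at 85.9% and 81.6% of YAR009C in CD and at 48.5% and 45.3% in DOX. It stood at 78.7% and 89.5% in CA and at 64.6% and 52.2% in AD. In both comparisons the inhibitor groups lay below their vehicles without overlap. In C0 the values were 61.4% and 72.1%, in HU 61.8% and 47.0%, and in MMS 63.1% and 57.9%, and each inhibitor overlapped C0. In CC they were 76.5% and 65.7% and in CPT 78.1% and 83.2%, higher with the inhibitor, and in CM 79.4% and 88.2% against 74.6% and 69.6% in MTX, lower. YNL054W-A was also lower without overlap with DOX and AD, with 48.7% and 46.0% in CD, 39.7% and 35.0% in DOX, 50.8% and 47.7% in CA, and 44.3% and 29.8% in AD. With MTX it did not follow YAR010C, at 53.2% and 55.4% in CM and 50.8% and 59.2% in MTX, which overlap. Its group means were 39.4% in CC and 44.4% in CPT, without overlap, and in HU and MMS it overlapped C0. These are ratios of rows that share reads with other copies, and they were not tested. Both ratios are divided by YAR009C, so they are not separate measurements.

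**Figure D4:**
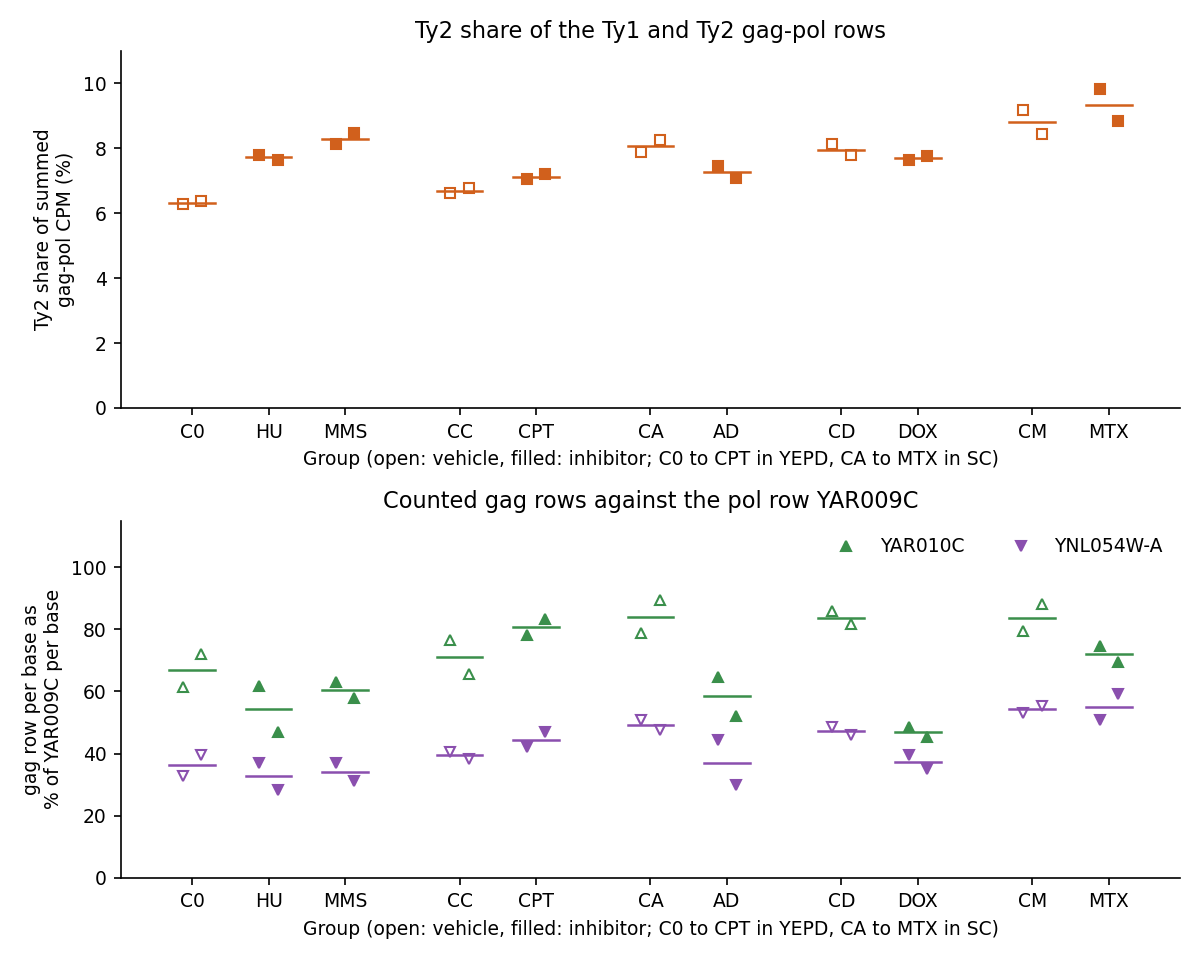
Upper panel: Ty2 percentage of the summed CPM of the listed Ty1 and Ty2 gag-pol rows. Lower panel: level per base of the gag rows YAR010C and YNL054W-A as a percentage of the pol row YAR009C. Points are cultures and lines are means of 2. The Ty2 share is 6.28% and 6.37% in C0 and 8.12% and 8.47% in MMS, and YAR010C stands at 48.5% and 45.3% of YAR009C in DOX against 81.6% and 85.9% in CD.

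The upstream sequences were sorted by likeness to YGR161W-B and YBL005W-B in a far part, from -250 to -141, and a near part, from -130 to -1. Of the 25 Ty1 rows that begin with gag, 13 were nearer to the Ty1 row in both parts, 8 were nearer to the Ty2 row in both, and 4 joined a Ty2-like far part to a Ty1-like near part. The sorting used sequence alone, with the rows' values known. The 4 joined rows, YER138C among them, stood at 123 to 128 CPM per kilobase, against 50.4 to 120 in the rows with Ty1-like upstream parts and 55.9 to 101 in those with Ty2-like parts. In HU the median log2 fold change was 1.02 in both the Ty1-like and the wholly Ty2-like rows of Ty1 and 0.98 in the joined rows, against 1.32 in the Ty2 rows. In MMS it was 1.51 in the Ty1-like, 1.48 in the wholly Ty2-like and 1.37 in the joined rows, against 1.89 in the Ty2 rows. In AD it was 0.62, 0.61 and 0.72 in the 3 kinds of Ty1 rows, in the same order, and 0.48 in the Ty2 rows. In that order it was 0.60, 0.65 and 0.64 in CPT, with 0.73 in the Ty2 rows. In DOX it was 0.93, 0.89 and 1.00, with 0.90 in the Ty2 rows. In MTX it was 0.93, 0.97 and 0.94, with 1.00 in the Ty2 rows. For C0 against CD it was 0.55, 0.46 and 0.53, with 0.15 in the Ty2 rows. Since few 50-base stretches of the pol parts occur once in the reference genome, these values do not measure the upstream parts.

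Responses were compared between inhibitors by a contrast of contrasts in the same fit, chosen after the calls were known. The MMS response exceeded the CPT response in the 4 Ty2 rows, beside 0.804% of all genes called higher. The difference in log2 fold change was 1.21 ± 0.27 in YDR261W-B (edgeR adjusted p = 0.0219), 1.17 ± 0.26 in YGR161W-B, 1.12 ± 0.26 in YDR034C-D and 1.10 ± 0.24 in YDR210W-B. In the 27 Ty1 gag-pol rows it was 0.68 to 1.00, none of them called, and all 27 had an unadjusted p under 0.05. Against HU, the MMS response was higher by a median of 0.47 over the members. There edgeR called 0 rows, with 24 at an unadjusted p under 0.05 and 2 called by DESeq2, beside 2.11% of all genes called higher. For DOX against AD, with 2.92% of all genes called higher, and MTX against DOX, with 10.1%, edgeR and DESeq2 each called 0 member rows and none had an unadjusted p under 0.05. The intervals are wide, and these results do not show that the responses were alike. The calls of MMS against CPT numbered 15 without CC culture 2, 1 without C0 culture 2, and 0 without MMS culture 2, C0 culture 1, CPT culture 2 or CC culture 1.

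Other Ty rows of the tables did not all follow. The 3 other Ty1 gag-pol rows summed to 643 and 627 CPM in C0 and to 1630 and 1875 CPM in MMS, near the ratio of the members. The Ty1 gag row YLR256W-A had log2 fold changes of 0.87 in HU, 1.41 in MMS and 0.74 in CPT. In AD, DOX and MTX it had 0.25, 0.36 and 0.75. The 129-base Ty1 row YMR046W-A had 0.80 in HU, 1.33 in MMS and 0.01 in CPT. In AD, DOX and MTX that row had 0.62, 0.96 and 0.04. Ty3, a retrotransposon of another family that is controlled by mating pheromone, has 2 gag-pol rows that passed the filter. They summed to 154 and 188 CPM in C0, 106 and 104 CPM in HU, and 124 and 109 CPM in MMS, and to 168 and 140 CPM in CD against 83.2 and 78.7 CPM in DOX. Both rows, YGR109W-B and YIL082W-A, fell in HU, MMS, AD, DOX and MTX, with edgeR adjusted p between 4.75e-05 and 0.029. In these comparisons 0.93%, 4.7%, 1.12%, 20.2% and 9% of all genes were called lower, in that order. In CPT both Ty3 rows were lower without a call (-0.44 and -0.33, edgeR adjusted p = 0.115 and 0.242), beside 0.898% called lower. In HU, MMS, DOX and MTX most Ty1 and Ty2 rows thus rose while both Ty3 rows fell. Of the 3 tested Ty4 rows edgeR called none in the 7 comparisons, with a smallest adjusted p of 0.065. Of these 21 tests 8 had an unadjusted p under 0.05, and DESeq2 made 2 calls. Their sums lay between 57.3 and 104 CPM. Without overlap of cultures, the group means were higher in HU (1.46 times C0) and MMS (1.32 times C0) and lower in MTX (0.894 times CM). C0 lay below CD without overlap (0.676 times), and in CPT, AD and DOX the Ty4 sums overlapped their vehicles.

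Of 60 listed genes known to act on Ty1, chosen with earlier results of these data known, all were tested. In HU none was called higher and 1 (1.67%) lower, beside 2.63% and 0.93% of all genes. It was RAP1, whose product binds many promoters (218 and 208 CPM in C0, 147 and 119 CPM in HU). In HU 2 of the 60 had an unadjusted p under 0.05 and DESeq2 called 2. In MMS 3 of the 60 (5%) were called higher and 2 (3.33%) lower, shares below the 6.07% and 4.7% of all genes. GCN4, the activator of amino acid synthesis genes, stood at 145 and 198 CPM in C0 and 338 and 257 CPM in MMS (0.79 ± 0.16, edgeR adjusted p = 0.00431). SWI1, a subunit of the SWI/SNF chromatin remodeller, and TYE7, a glycolytic activator that also acts at Ty1, rose by 0.89 and 0.86 on the log2 scale. RAP1 and RTT101, a cullin named for restricting Ty1, fell. In CPT and AD edgeR called none of the 60, beside 1.91% and 2.02% of all genes called higher and 0.898% and 1.12% called lower. At an unadjusted p under 0.05 there were 5 in CPT and 8 in AD, and DESeq2 called 2 and 1. In DOX 8 (13.3%) were called higher and 13 (21.7%) lower, beside 21% and 20.2% of all genes. SPT16, a histone chaperone, rose by 1.30 on the log2 scale, while TYE7 fell by 2.11 and DBR1, the lariat debranching enzyme that Ty1 transposition needs, by 1.00. In MTX 1 was called higher, GCN4 (0.82 ± 0.16, edgeR adjusted p = 0.0028), and 5 lower, among them DBR1 and SPT15, the TATA-binding protein. These shares, 1.67% and 8.33%, lay below the 10.8% and 9% of all genes. For C0 against CD, in which 8.87% of all genes were called lower, 2 of the 60 (3.33%) were higher, beside 11.2% of all genes, and 3 (5%) lower. The median log2 fold change of the list lay between -0.14 and 0.03 in the 7 comparisons.

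The authors' deposited tables of comparisons hold DESeq2 results for the 6 inhibitors. In the authors' deposited table all 33 rows had an adjusted p under 0.05 in HU, MMS and MTX, 32 in DOX, 31 in AD and 29 in CPT. Median log2 fold changes there were 1.03, 1.49 and 0.97 in HU, MMS and MTX, and 0.91, 0.60 and 0.62 in DOX, AD and CPT, in the authors' deposited tables. The sizes are close to those given above, and the call numbers differ in HU, CPT and AD. How libraries were used as replicates in them is not stated in the files.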

How the data were processed

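RNA was sequenced from 22 yeast cultures, 2 in each of 11 groups, with 2 libraries per culture. The authors deposited 1 table of raw counts per annotated feature for each group, made with featureCounts 1.6.0, per the file headers, on a sacCer3 annotation and with no option for strand, read pairs or reads over several features. Those headers name Bowtie2 alignments marked mskDup and non-redundant, and a removal of duplicates would lower the counts of abundant copies. Bowtie2 is also named in the submitters' processing notes. One description of a CM library does not match its title, and the title was followed. The authors' deposited comparison tables hold DESeq2 log2 fold changes and adjusted p-values. Of the 6692 features 6008 matched RefSeq R64, 6000 of them with the same coordinates.

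Counts of both libraries of a culture were summed, and no library was left out. edgeR 4.0.16 (R 4.3.3) was fitted to the 11 groups at once with TMM scaling, filterByExpr (minimum count 10, minimum total 15), the quasi-likelihood test and Benjamini-Hochberg adjustment over 6344 genes. The SE is the absolute log2 fold change divided by the square root of F. The fit was tested on simulated data. Sums over members were given no p. Identities were computed with edlib 1.3.9.post1 in Python 3.11.15. Members, gene lists and rules were chosen with earlier results of these data known, and the contrasts between responses after seeing the calls. Named were the 3 rows of highest level per kilobase in each family, up to 4 called rows with the largest rise or fall and no overlap of cultures per comparison, the counted gag rows, and up to 3 listed host genes per direction. No row of lowest count was named, since 26 stood at 0. YOR142W-B, YPL257W-B, YER160C and YLR035C-A are named under the second part, while YBR012W-B was named after its level was seen. Alternatives were other scaling, no filter, a replicate block, each technical replicate alone, only the groups compared, each culture left out, and DESeq2 1.42.0. Every p-value of the main fit rests on the spread between the 2 cultures of a group, pooled over all 11 groups.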

Additional observations from a re-analysis of the deposited data

Results flagged for a closer look

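The response to MMS and the response to CPT differed in 4 member rows, by the test of the difference itself in edgeR's quasi-likelihood fit (adjusted p from 0.0171 to 0.0342). These were the Ty2 rows YDR261W-B, YGR161W-B, YDR034C-D and YDR210W-B, with differences of 1.21, 1.17, 1.12 and 1.10 on the log2 scale. The contrast was chosen after the calls were known, and the 2 vehicles, water and NaOH, differ. Ty2 gag-pol rows summed to 433 and 430 CPM in the water cultures and to 810 and 587 CPM in the NaOH cultures. In none of the 4 rows did the call hold in every fit that left out 1 culture. Dixon's test on the 4 libraries of each group singled out 0 of 33 combinations of group and summed measure. Since those libraries are 2 cultures with 2 technical replicates each, it can show a single library far from the rest but not a culture that stands apart.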

How the results depend on the processing

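Of 33 member rows, the number called in HU (32) was 4 with technical replicate 2 alone. In CPT (4) it was 33 with technical replicate 1 alone, 0 with technical replicate 2 alone or with the 2 groups alone, and 15 by DESeq2. In AD (2) it was 1 with relative log expression size factors, 7 and 0 with technical replicates 1 and 2 alone, 0 with the 2 groups alone and 11 by DESeq2. For C0 against CD (3) it was 5 with the replicate block or with crossed numbers, 7 and 0 with technical replicates 1 and 2 alone, 19 with the 2 groups alone and 10 by DESeq2. For MMS minus HU (0) it was 7 with the groups compared alone and 2 by DESeq2, and for MMS minus CPT (4) it was 2 with technical replicate 2 alone, 0 with those groups alone and 7 by DESeq2. The cause of these shifts was not tested.

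With 1 culture left out, calls numbered 4 to 31 in HU, 33 in MMS, 0 to 12 in CPT, 0 to 6 in AD, 26 to 32 in DOX, 8 to 33 in MTX, 0 for C0 against CD and 0 to 15 for MMS minus CPT. Such fits leave 1 culture in a group, which is assumed to vary like the others. The log2 ratio of summed Ty1 and Ty2 counts kept its direction in all of them, from 0.33 for C0 against CD to 1.61 in MMS.

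Among the 16 named rows, the signs that turned were of small uncalled differences. The median over the members for MTX minus DOX, 0.04, also turned, and ran from -0.22 to 0.26 over the alternatives. Without 1 culture, C0 against CD ran from -0.08 to 0.22 in YGR161W-B, from -0.02 to 0.19 in YDR261W-B and from -0.04 to 0.25 in YNL054W-A, and DOX against CD from -0.01 to 0.29 in YAR010C. With technical replicate 1 alone the value of YGR161W-B for C0 against CD was 0.0. Over all genes tested, the log CPM difference between cultures 1 and 2 of a group was correlated with that of its comparison group. The correlation was 0.34 in HU, 0.06 in MMS, 0.49 in CPT and 0.71 in AD. In DOX it was 0.16, in MTX -0.24 and for C0 against CD -0.14. Each value rests on 1 such difference per group, which does not show that the numbers pair the cultures. With the replicate block the calls were 32 in HU, 33 in MMS, 4 in CPT, 3 in AD, 32 in DOX, 33 in MTX and 5 for C0 against CD. With crossed numbers they were 33 in MTX. The 33 rows took at least 0.446% of the counts of a culture. In the main fit each p rests on 2 cultures per group, with the spread pooled over the 11 groups. Shared reads limit what any single row can show.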
